A study of Homo sapiens with 6 samples.

Results

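Deposited peaks of acetylated NEIL1 (AcNEIL1) were described at 10 genes of the AP-1 and early growth response group: FOS, FOSB, FOSL1, FOSL2, JUN, JUNB, JUND, EGR1, ATF3 and IER2. NEIL1 is a DNA glycosylase that starts the repair of oxidised bases, and its acetylated form was precipitated from crosslinked, sonicated chromatin with a custom rabbit antibody and sequenced. The material was HCT116, an established human colorectal carcinoma line, sub-cultured the day before and harvested in exponential growth in medium with fetal calf serum. There were 3 AcNEIL1 libraries and 3 libraries of input DNA taken before precipitation, numbered alike. Each AcNEIL1 library has a peak table called by the authors against the input of its number, and the inputs entered through these tables alone. No second condition and no acute stimulus is named. Nothing in the labels tells whether the libraries came from separate cultures, so their spread may be technical.

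The genes were selected on earlier results of these same tables, in which immediate early and stress genes had peaks at their ends more often in replicates 1 and 3 than in replicate 2. Presence of peaks is therefore described here and not tested. All 10 genes were found among 19817 protein-coding genes of the RefSeq table on chromosomes 1 to 22 and X, and each was taken as its gene body extended by 5 kb on either side. A gene-end peak overlapped a window of 1000 bp either side of a gene's start or end by at least 1 bp. A gene without a peak is one where nothing passed the authors' q-value cutoff of 0.05 at this depth.

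AP-1 is a dimer of leucine zipper proteins of the Fos, Jun and ATF families that binds the sequence TGANTCA and its relative TGACGTCA. Several of its genes, with EGR1 and IER2, belong to the immediate early genes, though not all of them do. Immediate early genes are transcribed within minutes of a mitogenic or stress signal without new protein synthesis. Serum response factor at CArG boxes and cyclic AMP response elements are among their known switches. In colorectal carcinoma cells, signalling from RAS through the ERK kinases is known to drive this group, FOSL1 in particular.

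The 300 bases around the start, 250 before and 50 after it, are printed for 4 genes from RefSeq (GRCh38.p14), as examples that differ in peaks or motifs. IER2 had the peaks nearest to such a promoter, JUND had the site of highest mean fold but kilobases upstream, EGR1 carries CArG boxes, and FOS had no peak within 5 kb. Each runs 5′ to 3′ on the gene's own strand, and capitals mark the motifs found: GC boxes in IER2, GC boxes and a cyclic AMP response element in JUND, CArG boxes in EGR1, and a GC box and a TATA box in FOS.
IER2, chr19:13150161-13150460, plus strand: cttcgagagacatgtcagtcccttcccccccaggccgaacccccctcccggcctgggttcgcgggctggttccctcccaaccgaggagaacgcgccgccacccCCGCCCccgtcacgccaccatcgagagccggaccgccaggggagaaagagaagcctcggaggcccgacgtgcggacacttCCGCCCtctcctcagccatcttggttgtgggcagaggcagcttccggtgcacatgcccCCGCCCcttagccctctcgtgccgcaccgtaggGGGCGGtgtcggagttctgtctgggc
JUND, chr19:18281573-18281872, minus strand: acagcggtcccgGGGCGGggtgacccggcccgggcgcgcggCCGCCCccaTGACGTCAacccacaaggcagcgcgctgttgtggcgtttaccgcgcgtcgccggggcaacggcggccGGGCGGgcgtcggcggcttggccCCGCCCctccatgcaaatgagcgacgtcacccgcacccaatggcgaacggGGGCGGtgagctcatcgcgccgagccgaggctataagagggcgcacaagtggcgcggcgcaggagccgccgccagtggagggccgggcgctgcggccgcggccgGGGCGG
EGR1, chr5:138465229-138465528, plus strand: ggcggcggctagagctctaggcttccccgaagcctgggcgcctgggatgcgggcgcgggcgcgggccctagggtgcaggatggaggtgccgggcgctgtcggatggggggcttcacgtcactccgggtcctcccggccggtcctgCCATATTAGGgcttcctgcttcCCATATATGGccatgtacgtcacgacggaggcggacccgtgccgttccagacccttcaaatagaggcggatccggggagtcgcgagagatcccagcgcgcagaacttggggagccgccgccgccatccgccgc
FOS, chr14:75278578-75278877, plus strand: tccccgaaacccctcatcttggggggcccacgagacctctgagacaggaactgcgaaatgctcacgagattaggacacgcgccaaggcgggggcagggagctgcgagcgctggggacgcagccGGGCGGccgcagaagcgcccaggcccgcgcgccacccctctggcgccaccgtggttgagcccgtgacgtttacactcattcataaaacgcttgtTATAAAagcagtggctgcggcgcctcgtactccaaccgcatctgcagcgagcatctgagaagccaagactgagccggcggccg

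No promoter of the members was overlapped by a peak. Of the 10 genes 9 had an entry in the promoter table, FOSL1 being the exception, and ATF3 had 2. None of these 10 promoters was overlapped in any replicate, where 8.31% of 22131 promoters of protein-coding genes were overlapped in at least 1 replicate. With a share this low, none among 10 does not set the members apart. GC content ran between 46.3% and 77% in the members' promoters, with a median of 62.3% over all protein-coding promoters. In 4 groups of rising GC content, of 5475 to 5658 promoters each, 2.86%, 13%, 10.4% and 7.22% of all promoters were overlapped by a peak.

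Motifs were searched on both strands, and a match describes letters only. TGANTCA, the AP-1 site, was found in the promoter of FOSL2 and in 6.15% of all protein-coding promoters. TGACGTCA, the cyclic AMP response element, was found in that of JUND and in 2.26%. The CArG box was found in that of EGR1, at 2 places, and in 1.25%. TATAAA was found in those of FOS, FOSB, JUNB and ATF3 and in 9.46%. GGGCGG, the GC box, was found in 7 of the 9 genes and in 56.3% of all promoters. In the printed promoters no 2 motifs overlapped.

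Peaks were present near most of these genes and absent from the ends of 7 of them, as from those of 74.5% of all protein-coding genes. Of the 10 genes, 7, 6 and 6 had a peak in the extended body in replicates 1, 2 and 3, where 36.2%, 42.8% and 38.5% of all protein-coding genes did. In at least 2 replicates 7 genes had one, against 38.4% of all protein-coding genes and 39% of those with a body of at most 10 kb, a length that 8 of the 10 members share. At gene ends, 2, 2 and 3 members had a peak in replicates 1, 2 and 3, with a background of 14%, 20.1% and 15.6%. FOSB, FOSL1 and IER2, 3 members, had one in at least 2 replicates (background 15.2%), and FOSL1 alone had one in all 3 (background 9.03%). FOS and JUN had no peak in the extended body in any library, like 49.1% of all protein-coding genes.

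The extended bodies held 34 peaks in all: 10, 13 and 11 in replicates 1, 2 and 3. Of these, 7 touched a gene-end window, 8 lay in the rest of a body and 19 in the flanks. Among the 29 peaks of the 9 genes with a known strand, 13 had their summit before the start, 12 inside the gene and 4 past the end. The 4 members on chromosome 19 (FOSB, JUNB, JUND and IER2) held 21 of the 34 peaks. That chromosome held 5.57%, 5.73% and 5.60% of all peaks in replicates 1, 2 and 3. These shares are not on like terms, since the list places 4 of its 10 members there. Protein-coding genes of that chromosome had a median of 10, 16 and 12 peaks within 100 kb of the extended gene. Over all protein-coding genes the median was 2, 4 and 3.

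**Figure D1:**
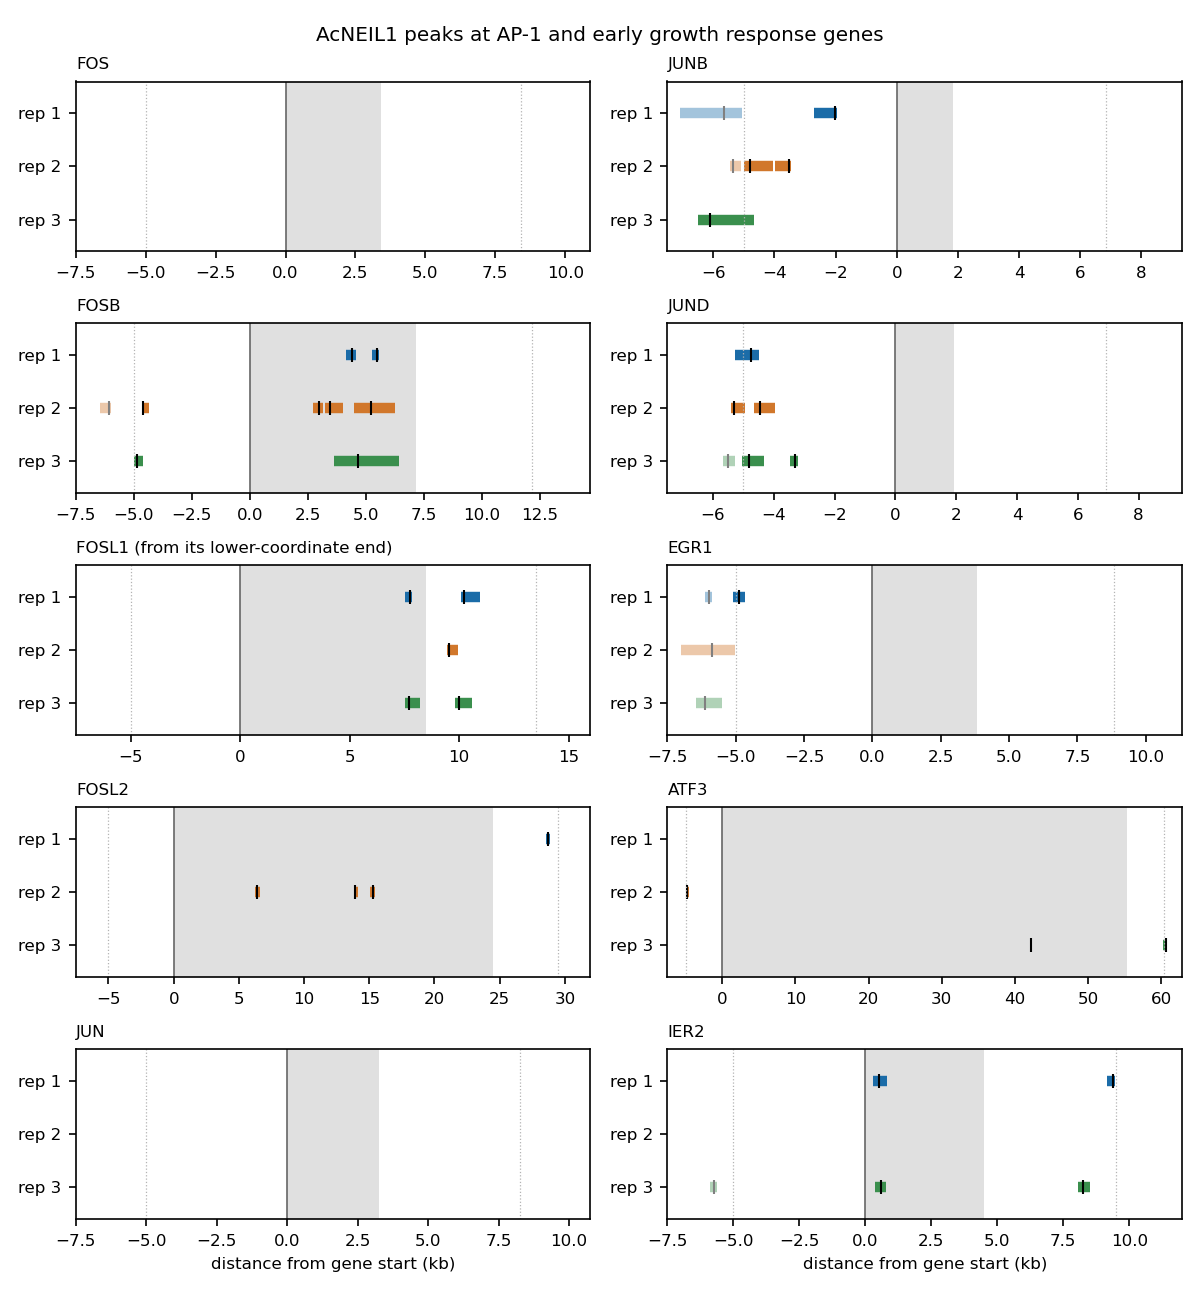
AcNEIL1 peaks at each of the 10 genes in replicates 1 to 3, as bars to scale against the distance from the gene start in kb, with a tick at the summit. Grey shading is the gene body, dotted lines mark 5 kb beyond it, and pale bars are the nearest peaks less than 1 kb outside those lines. FOS and JUN are empty, and among the 9 genes with a known strand only IER2 has peaks beside its start.

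Peak values at these genes lay close to the medians of the lists. Pileup is the number of tags, extended to the fragment length, that stack at a peak's summit. The genome-wide average would be 3.17, 3.14 and 3.10 tags in replicates 1, 2 and 3, so pileups are on nearly the same scale. Member peaks had a median pileup of 21.5, 18 and 19.1 tags in replicates 1, 2 and 3, beside 20, 21 and 19.1 for the whole lists. Their ranges were 13 to 35, 14 to 27 and 12.4 to 33.4 tags. The authors' fold enrichment over the local background had a median of 3.42, 3.38 and 3.57 at the members and 3.42, 3.4 and 3.61 over the lists. Median width was 428, 457 and 512 bp at the members, beside 401, 478 and 384 bp.

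**Figure D2:**
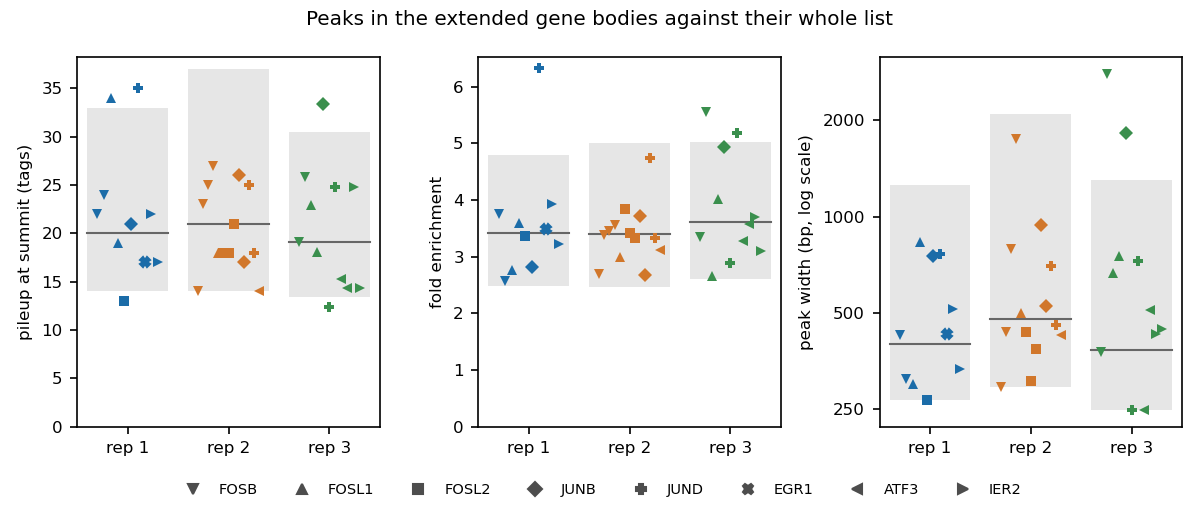
Pileup at the summit, fold enrichment and width (log scale) of each peak in the extended genes, by replicate and with a symbol for each gene. Grey boxes span the 5th to 95th percentile of all peaks of that replicate and grey lines their median. Most member peaks lie inside the boxes, and the JUND peak of replicate 1, at fold 6.33, stands highest.

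Among the Fos genes, FOS itself was empty. FOS encodes the founding partner of Jun in AP-1 and lies on chromosome 14 at 75278828 to 75282230. Its nearest peaks lay 293, 7.40 and 39.3 kb from a gene end in replicates 1, 2 and 3. Within a further 100 kb of the extended gene there were 0, 1 and 1 peaks.

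FOSB, which encodes a Fos protein known from long-lasting neuronal responses, carried the most peaks, 2, 4 and 2 in replicates 1, 2 and 3. It lies on the plus strand of chromosome 19 at 45467996 to 45475179. All 3 libraries had peaks inside the downstream part of the gene, which merged to 1 site at 45471231 to 45474431. Their strongest folds there were 3.75, 3.56 and 5.56 in replicates 1, 2 and 3, averaging 4.29 ± 1.10 (SD, n = 3). The strongest summits lay 4390, 5207 and 4672 bp from the start, so the 3 libraries marked the same stretch and not the same point.

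FOSB also had the widest single peak of the set. In replicate 3 a peak of 2790 bp covered most of the site, wider than 99.2% of that list, with a pileup of 25.8 tags. In replicate 2 there were separate peaks of 1741 and 792 bp with 27 and 25 tags. In replicate 1 there were separate peaks of 426 and 310 bp with 22 and 24 tags. Replicate 2 had a further body peak outside the site, 436 bp wide with 23 tags. The 1741 bp peak of replicate 2 and the replicate 3 peak reached into the window at the gene's end, by 62 and 253 bp. This made them gene-end peaks. Those of replicate 1 did not. A weaker site before the start had fold 2.69 in replicate 2 and 3.35 in replicate 3, with summits 4595 and 4855 bp upstream. The start of FOSB itself had no peak.

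FOSL1, which encodes FRA1, had gene-end peaks in all 3 libraries, but at separate places. The gene lies on chromosome 11 at 65892049 to 65900545, and the tables used here gave no strand for it. Replicates 1 and 3 shared a site inside the gene at its higher-coordinate end, 65899578 to 65900244, with summits 43 bp apart. Pileup there was 34 and 22.9 tags in replicates 1 and 3, and the local background was also high, at 11.7 and 8.00 tags, so that the folds were 2.77 and 2.66. Only 12.4% and 6.08% of the peaks of those lists had a lower fold. Replicate 2 had no peak there.

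Outside FOSL1, beyond the same end, a second site at 65901509 to 65902988 was found in all 3 libraries. Its pileup was 19, 18 and 18.1 tags and its fold 3.6, 3.00 and 4.02 in replicates 1, 2 and 3, averaging 3.54 ± 0.513 (SD, n = 3). The summits lay 1736, 1065 and 1498 bp past the gene. The replicate 2 peak ended at 65902007 and the replicate 1 peak began at 65902157. These 2 did not overlap and were joined to 1 site only through the replicate 3 peak. The replicate 2 peak reached the gene-end window by 37 bp. It was the sole gene-end peak of FOSL1 in replicate 2, and with summits in place of whole peaks FOSL1 kept its call in replicates 1 and 3 only.

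FOSL2, which encodes FRA2, had scattered peaks with no overlap between libraries. It lies on chromosome 2 at 28392858 to 28417317 and is, at 24.5 kb, the second longest member. Replicate 2 had 3 peaks in the body, with summits 6412, 13904 and 15301 bp from the start, pileups of 18, 18 and 21 tags and folds of 3.84, 3.41 and 3.33. Replicate 1 had 1 peak of 13 tags, 4276 bp past the end, and replicate 3 had none.

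At the Jun genes, which had no gene-end peak, sites lay upstream of JUNB and JUND. JUN encodes the main Jun protein of AP-1, on the minus strand of chromosome 1 at 58780791 to 58784047. Like FOS it was empty, and its nearest peaks lay 36.3, 15.4 and 89.2 kb from a gene end. JUND encodes the Jun protein that is made most steadily, and JUNB one that can restrain JUN.

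JUND had the site with the highest mean fold of those seen in all 3 replicates, kilobases from its promoter. The gene lies on the minus strand of chromosome 19 at 18279694 to 18281622, and the site upstream of it spanned 18285568 to 18287299. Pileup there reached 35, 25 and 26.7 tags in replicates 1, 2 and 3, and fold reached 6.33, 4.74 and 5.18, a mean of 5.42 ± 0.821 (SD, n = 3). In replicate 3 these values came from separate peaks. The one of 26.7 tags had fold 4.62 and lay 285 bp outside the 5 kb limit, and the one of fold 5.18 had 24.8 tags. The peaks of strongest fold had a higher fold than 99.6%, 92.6% and 96.2% of their lists. Their summits lay within 344 bp of each other, at 4763, 4465 and 4809 bp before the JUND start. The site lay around the higher-coordinate end of LOC124904652, a long non-coding RNA gene at 18282092 to 18285933, next to the ribosomal protein pseudogene RPL39P38. A further peak of replicate 3, of 12.4 tags, lay 3293 bp upstream.

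JUNB, on the plus strand of chromosome 19 at 12791486 to 12793315, had peaks in its upstream flank alone. All 4 lay inside HOOK2, the gene of a microtubule-binding protein at 12763003 to 12792350, which overlaps JUNB, and those of replicates 2 and 3 also lay within 1000 bp of the microRNA gene MIR5684. A peak 2031 bp upstream was seen in replicate 1 only, with fold 2.82, and one 3510 bp upstream in replicate 2 only, with fold 2.68. A site at 12783107 to 12787426 was found in all 3 libraries, with pileups of 32, 33 and 35.3 tags and strongest folds of 5.60, 3.75 and 5.60, a mean of 4.98 ± 1.07 (SD, n = 3). The strongest summits of this site spanned 1737 bp over the 3 libraries. The mean of its highest pileups, 33.4 ± 1.69 tags, was above the 28.9 ± 5.35 of the JUND site (SD, n = 3), a difference that was not tested. These maxima were taken over 2, 5 and 2 peaks at JUNB and 1, 2 and 2 at JUND in replicates 1, 2 and 3. In replicate 2 a JUNB peak of 33 tags had a fold of 2.73, below the strongest fold of the site. Most of the JUNB site lies beyond the 5 kb limit. One of its replicate 1 peaks, 2030 bp wide, stopped 68 bp outside, whereas the replicate 3 peak reached 329 bp inside.

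ATF3 encodes a stress-induced partner and repressor of AP-1 targets and is, at 55.4 kb, the longest member, on chromosome 1 at 212565407 to 212620777. It had few and weak peaks: none in replicate 1, 1 in replicate 2 and 2 in replicate 3. The replicate 2 peak had 14 tags and lay 4851 bp upstream. In replicate 3 a peak of 15.3 tags lay in the body, 42.2 kb from the start, and another of 14.3 tags lay in the neighbouring gene GARIN4 and reached the window by 41 bp. No 2 libraries shared a site at ATF3.

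EGR1, which encodes a zinc finger factor of the early growth response, had an upstream site that straddled the 5 kb limit. The gene lies on the plus strand of chromosome 5 at 138465479 to 138469303, and replicate 1 alone had a peak in the extended body, of 17 tags and fold 3.49, with its summit 4886 bp upstream. Just outside, replicate 2 had a peak of 24 tags and fold 3.52 that stopped 12 bp short of the limit, and replicate 3 one of 19.1 tags and fold 2.87 that stopped 494 bp short. Replicate 1 had a further peak there, of 18 tags and fold 3.25, that stopped 860 bp short. These peaks formed 1 site at 138458488 to 138460802, with strongest folds of 3.49, 3.52 and 2.87 and a mean of 3.29 ± 0.367 (SD, n = 3). The strongest peaks of replicates 1 and 3 did not overlap, and the strongest summits of the 3 libraries spanned 1239 bp. EGR1 thus had an upstream site in all 3 libraries, and its start, body and end had none.

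IER2, which encodes a small nuclear protein of the immediate early response, was the one member, of the 9 with a known strand, with peaks at its start. It lies on the plus strand of chromosome 19 at 13150411 to 13154911. Replicates 1 and 3 had peaks at 13150712 to 13151227 and 13150778 to 13151208, with summits 522 and 579 bp inside the gene. They had pileups of 22 and 24.8 tags, folds of 3.93 and 3.70 and widths of 516 and 431 bp. The peaks began 252 and 318 bp past the printed promoter. Replicate 2 had no peak in the extended gene, and its nearest lay 8.86 kb from a gene end.

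The local background under these peaks was 4.85 and 5.98 tags in replicates 1 and 3. In replicate 2 peaks with a local background of 4 to 6 tags were called from 12 tags upward (26178 peaks). In replicates 1 and 3 such peaks were called from 12 and 12.4 tags upward. Neither the pileup nor the local background of replicate 2 at the IER2 start is in its peak list, so its signal there is not known. IER2 stands 35 bp from the start of STX10, a gene of a membrane fusion protein that is read the other way, at 13144058 to 13150375. The same peaks therefore count for the start of both genes. IER2 had further peaks past its end that no 2 libraries shared, of 17 tags in replicate 1 and 14.3 tags in replicate 3, both near the pseudogene RPL12P42.

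Whether replicates 1 and 3 went together against replicate 2 was read for each gene. By peaks in the extended body, IER2 alone had this pattern, which 1.94% of all protein-coding genes had. FOSB, FOSL1, JUNB and JUND had peaks in all 3 replicates, as did 28.3% of all protein-coding genes. FOSL2 had them in replicates 1 and 2 (3.04%), ATF3 in replicates 2 and 3 (5.13%) and EGR1 in replicate 1 (2.95%). Presence was alike for 7 members between replicates 1 and 3, for 7 between 1 and 2 and for 8 between 2 and 3, where 85.7%, 83.6% and 85.4% of all protein-coding genes were alike in these pairs. At gene ends IER2 was again the only member with the pattern (0.873% of all protein-coding genes), and presence was alike for 9, 8 and 9 members in the same pairs, close to the 90.2%, 87.7% and 89.2% of all protein-coding genes. FOSL1 missed the pattern at gene ends through the 37 bp overlap of its replicate 2 peak at another site.

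Counted by place and not by gene, the peaks fell in 21 merged sites, which also took in overlapping peaks beyond the 5 kb limit. Of these sites, 5 were seen in all 3 replicates (23.8%, beside 13.2% of 85534 merged regions of the series): at FOSB, FOSL1, JUNB, JUND and EGR1. At EGR1 only replicate 1, and at JUNB only replicates 2 and 3, had a peak of that site reaching inside the limit. At FOSL1 the peaks of replicates 1 and 2 were joined only through that of replicate 3. The pattern of replicates 1 and 3 without 2 was found at 2 sites (9.52%, beside 3.13%), the start of IER2 and the inner site of FOSL1. One site, upstream of FOSB, was seen in replicates 2 and 3 (4.76%, beside 9.87%) and 0 in 1 and 2 (beside 5.47%). There were 3, 6 and 4 sites in replicates 1, 2 and 3 alone, which are 14.3%, 28.6% and 19% of the members' sites, beside 14.1%, 35.3% and 18.9% of all regions. At the sites shared by all 3, replicate 2 had the lowest strongest fold at FOSB, FOSL1, JUNB and JUND and the highest at EGR1. These counts are small and were not tested.

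Members differed widely in how many peaks lay around them. Within 100 kb of the extended gene, not counting the gene itself, IER2 had 41, 56 and 43 peaks in replicates 1, 2 and 3, JUND had 32, 37 and 45, and FOSL1 had 31, 40 and 38. The median protein-coding gene had 2, 4 and 3, and the median of the 1410 on chromosome 19 had 10, 16 and 12. FOS and JUN, the empty members, had at most 2. FOSB, with the most peaks of its own, had 9, 16 and 16, and JUNB had 13, 13 and 13, near the median of their chromosome. In replicate 2, IER2 was thus without a peak inside a region denser in peaks than that of 99.2% of protein-coding genes. Over the 10 members, which differ in window length and share each library's depth, Spearman's rho between the counts was 0.76, 0.35 and 0.61 in replicates 1, 2 and 3, and Pearson's r was 0.71, 0.13 and 0.65.

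**Figure D3:**
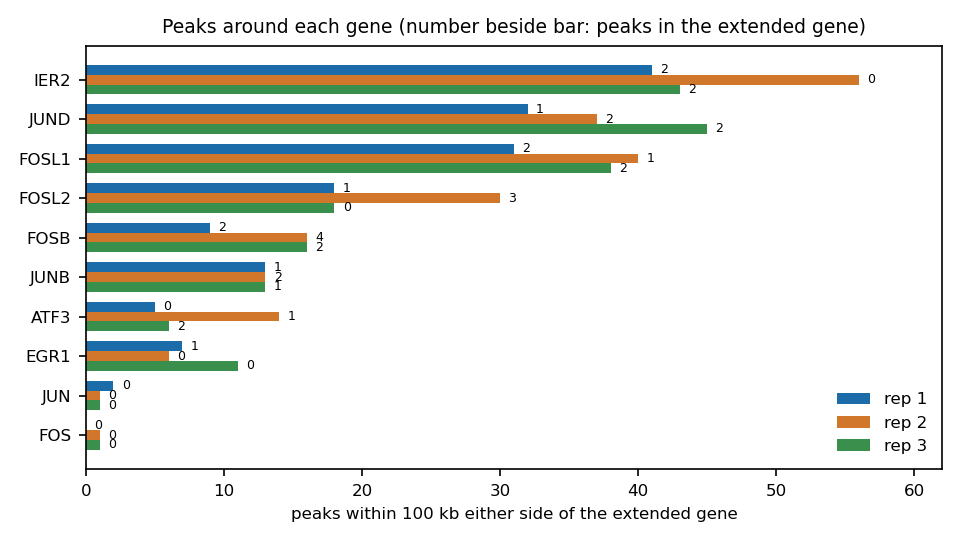
Bars give the number of AcNEIL1 peaks within 100 kb either side of each extended gene, in replicates 1 to 3, and the number beside each bar counts the peaks in the extended gene itself. Genes are ordered by their mean over replicates, from 46.7 peaks for IER2 to 0.667 for FOS.

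Other genes of the pathway were counted from lists drawn up with earlier results of these tables known, so a share above the background does not count as independent support. Peaks at gene ends in at least 2 replicates, present at 15.2% of all protein-coding genes, were found at 5 of 22 other leucine zipper partners and inhibitors of AP-1 and at 3 of 9 other EGR and IER genes. Other immediate early genes had them in 9 of 42, AP-1 target genes in 6 of 30, and upstream kinases and factors in 1 of 28. The pattern of replicates 1 and 3 without 2 was shown by 2, 0, 4, 2 and 0 genes of these 5 lists in the same order, beside 0.873% of all protein-coding genes. Peaks in replicates 1 and 2 without 3 were shown by 0, 1, 1, 0 and 0 of their genes (beside 1.89%), and in 2 and 3 without 1 by 1, 0, 1, 2 and 0 (beside 3.45%).

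Among the partners, MAFA, a factor of insulin-producing cells, had gene-end folds of 4.45, 6.59 and 4.71 in replicates 1, 2 and 3, and NRL, a rod photoreceptor factor, had 5.87, 4.28 and 4.78. BATF3, a factor of dendritic cells, had 4.32 and 4.68 in replicates 1 and 3 and none in 2, and DDIT3, the stress factor CHOP, had 3.87 and 3.83. WT1, a zinc finger factor of kidney and gonad, had a mean of 4.40 ± 0.608 and IER5L of 4.04 ± 0.348 (SD, n = 3).

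Of the other immediate early genes, PLK3, a polo-like kinase, had a mean gene-end fold of 4.57 ± 0.769, ZFP36L1 of 3.27 ± 0.698 and ARC, a synaptic gene, of 3.20 ± 0.342 (SD, n = 3). The 4 with peaks in replicates 1 and 3 alone were ZFP36, which promotes mRNA decay, with folds of 4.60 and 3.84, KLF6, a zinc finger factor, with 3.65 and 3.68, GADD45A, a DNA damage response gene, with 3.21 and 3.84, and DUSP6, a phosphatase of the ERK kinases, with 3.65 and 3.27. Upstream, MAPK3, the gene of an ERK kinase, had 3.75 ± 0.843 (SD, n = 3). Among targets, FTH1, the ferritin heavy chain, had 4.00 ± 0.665 and CCND1, cyclin D1, had 2.98 ± 0.558 (SD, n = 3). EREG, an EGF receptor ligand, had 4.31 and 2.73 in replicates 1 and 3 alone.

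**Figure D4:**
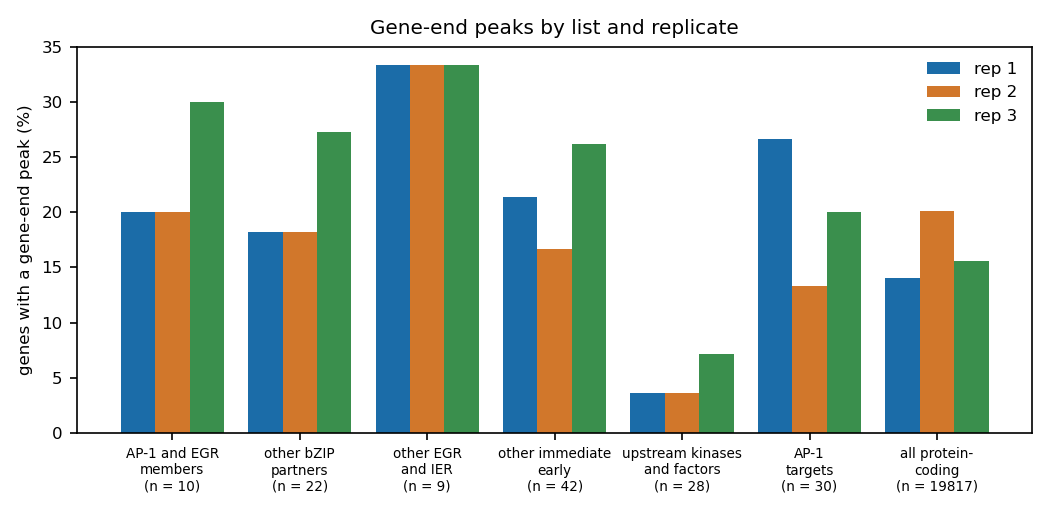
Share of genes with a gene-end peak, in percent, for the 10 members, for each related list and for all 19817 protein-coding genes, in replicates 1 to 3. Replicate 2 is the highest for all protein-coding genes (20.1%), and replicate 3 is the highest for the members, with 3 of 10 genes.

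Other genes with the pattern of IER2 were those with a peak at an end in replicates 1 and 3 and no peak of replicate 2 in the extended body. Besides IER2 there were 62 such genes, and they were ordered by the mean rank of the gene-end fold over these 2 replicates, which measures strength within the pattern and not closeness to the folds of IER2. Among the highest were MARS1, a methionyl-tRNA synthetase gene (folds 7.17 and 5.42), HSPA8, a constitutive heat shock protein gene (4.24 and 6.26), RXFP4, a relaxin family receptor gene (4.28 and 4.94), and DNAJA3, a mitochondrial chaperone gene (4.80 and 4.43). IER2 itself, with 3.93 and 3.70, ranked 20 of 63.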

How the data were processed

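AcNEIL1 chromatin immunoprecipitation was sequenced in HCT116 cells, and the peak tables of 3 replicates were used as deposited. Per the file headers, peaks were called with MACS 2.1.1.20160309 for each replicate against its own input, unpooled and single-end, at a q-value cutoff of 0.05, with the larger library of a pair scaled down and at most 2 tags per position. Depth after that filter was 28814429 to 35222701 tags in the AcNEIL1 libraries and 32877739 to 37772127 in the inputs, and fragments were 268, 294 and 249 bp in replicates 1, 2 and 3. The lists held 39898, 60233 and 49731 peaks. Trim Galore, FastQC, cutadapt, Bowtie2, SAMtools and bedtools stand in the submitters' processing notes, and the role of each was not stated there. The deposited pileup is a signal in extended tags, the deposited fold is a ratio of pileup to local background with 1 added to each, and the deposited −log10 values belong to the caller's p and q. Width is in bp. The tables are in hg38, per the file headers.

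Gene positions came from RefSeq (GRCh38.p14), without exons, so exon, intron and UTR positions were not analysed here. Strand came from the RefSeq promoter table, and FOSL1 has no entry there. Rows on scaffolds were dropped by their order in the table. Local background was recovered as (pileup + 1) / fold − 1. Sites were merged at an overlap of 1 bp, so peaks that did not overlap could be joined through a peak of another replicate. Overlap counting was tested on simulated intervals (Python 3.11.15, pandas 2.3.3). No test was run: there is 1 condition, and the members and lists were chosen with earlier results of these data known. Named genes of other lists were up to 4 with gene-end peaks in all 3 replicates and up to 4 with them in 1 and 3 only, by mean rank of fold, and genes with the pattern of IER2 were the 5 highest by that rank. Some genes that these rules name are not reported here. Alternatives were stricter peaks, equal list lengths, summits, other windows and leaving out replicates.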

Additional observations from a re-analysis of the deposited data

How the results depend on the processing

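Of the 10 members, 7 had a peak in the extended body in at least 2 replicates. This count was 4 with −log10 q of 5 or more, 3 with the gene body alone and 3 with an extension of 1000 bp. It was 6 with lists cut to equal numbers of peaks, 7 with summits and 8 with an extension of 10000 bp. Without any 1 replicate, asking for a peak in both others, it was 5.

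Peaks at gene ends in at least 2 replicates were found at 3 members. It was 1, IER2, with windows of 500 bp and also with gene starts alone, where FOSL1 could not be counted, and 6 with windows of 5000 bp. It ranged from 1 to 2 when a replicate was left out. It was 2 with stricter peaks, with equal lists and with summits, and 3 with windows of 2000 bp.

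The pattern of a gene-end peak in replicates 1 and 3 and not 2 was shown by 1 member, IER2, and by 2 with summits, where FOSL1 joined it. The other alternatives gave 1. The pattern of replicates 1 and 2 without 3 was shown by 0 members, and that of 2 and 3 without 1 by 1, FOSB. No paired analysis was possible because the inputs have no values of their own here and no test was run.

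The lists hold no counts outside peaks, so with 3 libraries a peak missing from 1 of them cannot be told apart from one just under the cutoff.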
